A study of Oryza sativa with 12 samples.

Results

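Aquaporins are membrane channels of the major intrinsic protein family, which carry water and small uncharged solutes across the membranes of plant cells. Plasma membrane intrinsic proteins (PIPs) set much of the water permeability of the cell surface, and tonoplast intrinsic proteins (TIPs) that of the vacuole, the compartment that holds most of the water of a grown plant cell. Nodulin 26-like intrinsic proteins (NIPs) carry small neutral solutes such as silicic acid, arsenous acid and boric acid. Rice accumulates much silicon, which enters root cells through NIP channels and leaves them through an efflux transporter of another family.

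The genes described here are the 20 of 33277 whose product description names an aquaporin, a membrane intrinsic or tonoplast intrinsic protein, or a silicon influx transporter. The descriptions put 6 of them among the TIPs, 4 among the PIPs and 6 among the NIPs, and leave 4 as aquaporins of no stated subfamily. The rule reads descriptions, not measured values, and it leaves out other genes of the family that are described in other words. A mean of at least 20 normalized counts over all libraries was reached by 12 members, namely 4 TIPs, 3 PIPs, 3 NIPs and 2 aquaporins of no stated subfamily. The other 8 had means between 0.245 and 5.20 normalized counts. The files do not pair these identifiers with symbols, so members are named here by identifier and description.

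RNA was sequenced from the crown, the stem base that bears leaves and crown roots, of 6 rice genotypes grown for 8 days in agar-thickened Yoshida solution with 1.5 µM ZnSO4 or with 0 µM. All plants, with Zn or without, had 1 mM KHCO3 and 0.1% agar in the solution. The Zn-efficient genotypes, by their labels, were IR55179-3B-11-3, Nipponbare and RIL46. The Zn-inefficient ones were Kinandang Patong, IR64 and IR74. Each of the 4 groups had 3 libraries, 1 per genotype, so the spread within a group holds differences between genotypes together with those between plants and libraries. The data used here are the authors' 6 tables of comparisons, with 1 value per gene and comparison and none per library, so the depth of each library is unknown here. A gene is called changed where its deposited adjusted p, in a test whose null is a change of up to 2-fold, fell under 0.05. A test of no change was computed from the same deposited log2 fold changes and standard errors (SE). Mean normalized counts per group were derived from the deposited tables, and since they do not allow for transcript length they are compared between groups and not between genes.

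Tissue markers were read as descriptions of the sampled crowns. The shoot meristem markers, matched by description to homeobox genes of the KNOX and WUSCHEL types, include OS02G0678800 and OS04G0600900, described as regulators of a KNOX gene. The summed derived group means of these 21 genes, 18 of them with group means, lay between 5999 and 6652 normalized counts in the 4 groups. Those of 16 genes matched as green leaf markers, 15 with group means, lay between 4640 and 6041. The gene left out of that sum, OS07G0261200, is described as a CCT domain protein of heading date. The summed means of the secondary wall cellulose synthase genes lay between 1292 and 1943, with 2 of 3 loci analysed here. The 7 genes matched as root markers include 1 described as a DNA repair helicase. Without it, the 6 root genes of the RCc2 and RCc3 type summed to 3895 with Zn and 3696 without Zn in efficient genotypes, and to 3785 with Zn and 1337 without Zn in inefficient genotypes. This sum is nearly all 1 gene, the RCc3 gene OS02G0662000, whose derived group means were 3515 and 3486 in efficient and 3479 and 1254 in inefficient genotypes, with and without Zn in that order. OS10G0551800 had 172 and 155 in efficient and 120 and 47.3 in inefficient genotypes, in the same order. It too was lowest in inefficient crowns without Zn. Not all of the other root genes followed OS02G0662000 in every group. OS04G0554500 had 133 and 18.9 in efficient and 95.1 and 7.70 in inefficient genotypes. OS04G0554600 had 44.6 and 2.63 in efficient and 42.5 and 6.02 in inefficient genotypes, in the same order. The derived means of both were thus lower without Zn in each class. In efficient genotypes, however, 0 of the 7 genes matched as root markers fell by the test of no change. None of these marker genes was at 0 over all libraries.

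**Figure D1:**
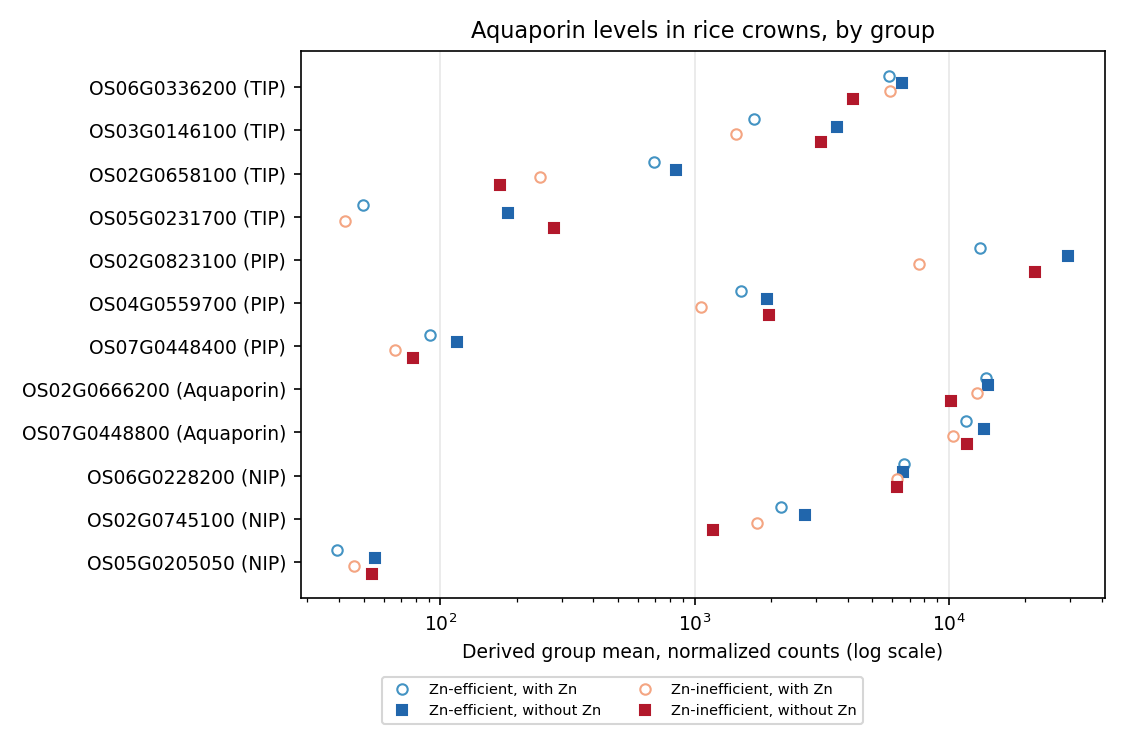
Derived group mean in normalized counts (log axis) of the 12 members with a mean of at least 20, with circles for groups with Zn and squares for groups without. Both squares lie to the right of both circles in OS05G0231700, OS03G0146100, OS02G0823100, OS04G0559700, OS07G0448800 and OS05G0205050. In OS06G0228200 the 4 groups lie between 6235 and 6672 normalized counts.

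When Zn was withheld, 1 aquaporin gene passed the deposited test of a change beyond 2-fold in the inefficient genotypes, and none passed it in the efficient ones. It was OS05G0231700, described as similar to a tonoplast intrinsic protein. Its derived group means were 49.6 normalized counts with Zn and 185 without Zn in efficient genotypes, and 42.2 with Zn and 279 without Zn in inefficient genotypes. The levels with Zn were close in both classes, and both levels without Zn were higher. In the inefficient genotypes the log2 fold change was 2.73 (SE 0.28), a 6.62-fold rise, with a DESeq2 adjusted p = 1.63e-07 in the authors' deposited table. In the efficient genotypes it was 1.90 (SE 0.28), or 3.74-fold, which did not pass for a change beyond 2-fold (adjusted p = 0.324) in the authors' deposited table, while it passed the test of no change (adjusted p = 2.96e-09). Over all genotypes the log2 fold change was 2.31 (SE 0.23), with an adjusted p = 3.21e-06 in the authors' deposited table. Among the genes tested with a mean of at least 20, 2.19% had a higher log2 fold change in inefficient genotypes and 1.07% in efficient ones. Both calls of this gene were lost (adjusted p = 1 for each) when every SE was multiplied by the spread of log2 fold change over SE seen across all genes, a spread to which true responses also add. Between the classes over both supplies the gene stood at 0.23 (SE 0.23; adjusted p = 1), per the authors' deposited table. How reads shared by near-identical copies were counted is unknown here, so values of close family members are uncertain to that extent.

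By the deposited test, 1 of 14 members tested was called in the inefficient genotypes, where 3.5% of all genes were called (2.42% higher and 1.08% lower). In the efficient genotypes 0 of 15 were called, where 0.28% of all genes were (0.246% higher and 0.0345% lower). There 1 member, OS05G0231700, had an unadjusted p under 0.05 (DESeq2), as did 272 of 26062 genes. Over all genotypes 1 of 14 was called, where 1.12% of all genes were (0.922% higher and 0.197% lower). By the test of no change, 4 of 14 members rose and 0 fell in the inefficient genotypes, against 32.2% of all genes (17% higher and 15.2% lower). In the efficient genotypes 2 of 15 rose and 0 fell, against 7.86% of all genes (4.89% higher and 2.97% lower). Over all genotypes 4 of 14 rose and 0 fell, against 34.1% of all genes (17.9% higher and 16.2% lower). These shares rest on 1 to 4 genes, and nothing particular to aquaporins is read from them. Of the 7 genes matched as root markers, 6 were tested in inefficient genotypes, the DNA repair helicase among them. Of these, 0 rose and 3 fell by the test of no change when Zn was withheld, and their part in these counts was not tested.

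**Figure D2:**
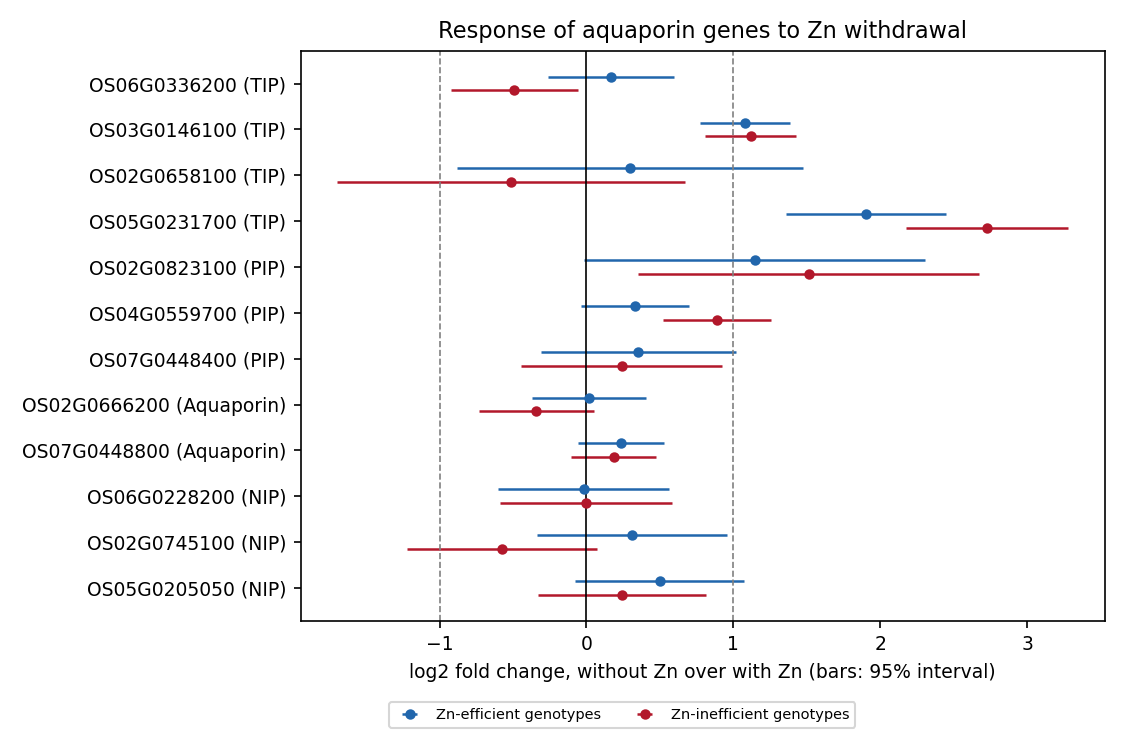
Log2 fold change of each member with a mean of at least 20, without Zn over with Zn, in efficient and inefficient genotypes, with 95% intervals from the deposited SE and dashed lines at a 2-fold change. The interval of OS05G0231700 lies beyond the 2-fold line in both classes, and that of OS03G0146100 lies on both sides of that line and above 0 in both.

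Among the other TIP genes, OS03G0146100, a tonoplast water channel by its description, had derived group means of 1717 normalized counts with Zn and 3628 without Zn in efficient genotypes, and of 1454 and 3153 in inefficient genotypes. Its level without Zn was about double in both classes. The log2 fold changes were 1.08 (SE 0.16) in efficient and 1.12 (SE 0.16) in inefficient genotypes, per the authors' deposited table. Since a 2-fold change is the null of the authors' test, neither passed it (adjusted p = 1 for each), while both passed the test of no change (adjusted p = 1.66e-09 and 4.81e-11). The response differed between classes by 0.04 on the log2 scale, with a 95% interval from −0.40 to 0.47.

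OS06G0336200, a delta-tonoplast intrinsic protein, had derived group means of 5806 with Zn and 6532 without Zn in efficient genotypes, and of 5888 and 4192 in inefficient genotypes. It was lowest in inefficient crowns without Zn. Its log2 fold changes of 0.17 (SE 0.22) and −0.49 (SE 0.22), per the authors' deposited table passed neither test, with an adjusted p for no change of 0.804 in efficient and 0.0722 in inefficient genotypes. OS02G0658100, similar to tonoplast intrinsic protein 2, had derived group means of 689 and 847 in efficient genotypes and of 246 and 172 in inefficient ones, with and without Zn in that order. It differed more between the classes than between the supplies, as given below for the classes. Its Zn responses of 0.30 (SE 0.60) and −0.51 (SE 0.60), per the authors' deposited table passed neither test. The remaining TIP members, OS04G0550900 and OS05G0231600, had means of 0.756 and 0.408 normalized counts and no adjusted p in the authors' deposited tables for Zn.

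The members described as PIPs, channels of the plasma membrane, all had positive Zn responses where the mean was at least 20, and none passed the deposited test. Members of no stated subfamily are given apart below, and whether they are PIPs is not read here. OS02G0823100, similar to the maize protein ZmPIP1-5, had derived group means of 13310 normalized counts with Zn and 29459 without Zn in efficient genotypes. In inefficient genotypes these were 7605 and 21723. The mean without Zn was thus more than double in each class, but the SE was large. The log2 fold changes were 1.15 (SE 0.59) in efficient and 1.51 (SE 0.59) in inefficient genotypes, per the authors' deposited table. By the test of no change the gene rose in inefficient genotypes (adjusted p = 0.0353) and over all genotypes (1.33, SE 0.41; adjusted p = 0.00603), and did not pass in efficient genotypes (adjusted p = 0.267), all from values in the authors' deposited table. Its SE in the efficient comparison was larger than that of 95.7% of the 1604 genes whose mean reached 1000 normalized counts, by the SEs of the authors' deposited table.

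OS04G0559700, similar to the aquaporin PIP1.1, had derived group means of 1525 with Zn and 1920 without Zn in efficient genotypes, and of 1056 and 1957 in inefficient genotypes. The classes were closer together without Zn than with it. Its log2 fold change was 0.33 (SE 0.19) in efficient and 0.89 (SE 0.19) in inefficient genotypes, per the authors' deposited table, of which the second passed the test of no change (adjusted p = 2.28e-05) and the first did not (adjusted p = 0.333). OS07G0448400, similar to the aquaporin PIP2-5, had derived group means of 91.1 and 116 in efficient and of 66.0 and 77.9 in inefficient genotypes, with and without Zn in that order. Its responses of 0.35 (SE 0.34) and 0.24 (SE 0.35), per the authors' deposited table passed neither test. OS09G0541000, similar to aquaporin 2, had a mean of 0.332 normalized counts.

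Of the aquaporins with no stated subfamily, OS07G0448800 had derived group means of 11684 with Zn and 13753 without Zn in efficient genotypes, and of 10399 and 11821 in inefficient genotypes. The 4 groups lay close together. The Zn responses were 0.24 (SE 0.15) and 0.18 (SE 0.15), per the authors' deposited table, with 95% intervals from −0.06 to 0.53 and from −0.11 to 0.48, so a doubling lay outside the interval in each class. OS02G0666200 had derived group means of 14023 and 14198 in efficient and of 12897 and 10180 in inefficient genotypes, with and without Zn in that order. Its responses of 0.02 (SE 0.20) and −0.34 (SE 0.20), per the authors' deposited table passed neither test, and both 95% intervals ended short of a 2-fold change. OS10G0481100, by its description similar to an aquaporin fragment, had a mean of 5.20 normalized counts. Its responses of −1.05 (SE 0.86) and −2.22 (SE 1.07), per the authors' deposited table, passed neither test. OS03G0861300 had a mean of 4.65 normalized counts.

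Neither silicon influx gene of the NIP subfamily passed a test for Zn in either class. OS06G0228200, described as a NIP III silicon influx transporter, had derived group means of 6672 with Zn and 6580 without Zn in efficient genotypes, and of 6240 and 6235 in inefficient genotypes. It was the member with the most even level over the groups. Its Zn responses were −0.02 (SE 0.30) in efficient and −0.00126 (SE 0.30) in inefficient genotypes, per the authors' deposited table, and 95% intervals from −0.60 to 0.56 and from −0.59 to 0.58 did not reach a 2-fold change.

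OS02G0745100, the other NIP III silicon influx transporter, is also described as taking up arsenic and selenite. Its derived group means were 2191 with Zn and 2714 without Zn in efficient genotypes, and 1756 and 1181 in inefficient genotypes. The group of inefficient crowns without Zn was the lowest. The Zn responses of 0.31 (SE 0.33) and −0.57 (SE 0.33), per the authors' deposited table passed neither test, with an adjusted p for no change of 0.739 and 0.185. OS05G0205050, an isoform of the aquaporin NIP1-3, had derived group means between 39.3 and 55.5 normalized counts and responses of 0.50 (SE 0.29) and 0.24 (SE 0.29), per the authors' deposited table, which passed neither test. The 3 remaining NIP members are NIP3-2 (OS08G0152000) and the NIP3-3-like genes OS08G0152100 and OS08G0151900, with means of 1.78, 0.418 and 0.245 normalized counts. Their log2 fold changes for Zn in the authors' deposited tables had SEs between 1.31 and 4.41, so nothing is read from them.

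Transport genes with which these channels work were counted from description patterns. Silicon efflux and boron transport had 2 genes, OS03G0107300 and OS12G0566000, and 0 were called in any deposited table, nor was either at an unadjusted p under 0.05 there (DESeq2). By the test of no change the boron transporter OS12G0566000 fell in inefficient genotypes (−0.68, SE 0.19; adjusted p = 0.0026), from values in the authors' deposited table. OS03G0107300, the silicon efflux transporter, had derived group means of 3371 and 4238 in efficient and of 1968 and 1312 in inefficient genotypes, with and without Zn in that order. It was thus lowest in the same group as the influx gene OS02G0745100. This is not particular to silicon genes, since OS12G0566000, OS06G0336200 and OS02G0666200 were also lowest in that group. Of 29 proton pump genes, which energize transport across the plasma membrane and the tonoplast, 25 were tested in inefficient genotypes, where 1 rose and 0 fell by the deposited test, beside 2.42% and 1.08% of all genes. Their median was 0.27, against a median of 0.00312 over all genes tested. That gene, OS07G0191200, a plasma membrane H+-ATPase, rose by 2.72 (SE 0.25; DESeq2 adjusted p = 6.77e-10) in the authors' deposited table. A further 43 genes matched potassium transport, the movement of the main osmotic ion of plant cells. They include regulators, such as the MYB-type factor OS09G0299200, the kinase OS07G0150700 and the calcium sensor OS10G0564800. Of the 43, 37 were tested in inefficient genotypes, and 0 rose and 1 fell at a median of 0.36, beside the same shares of all genes. In inefficient genotypes 9 proton pump genes rose and 4 fell by the test of no change, and 10 potassium transport genes rose and 4 fell, where 17% of all genes rose and 15.2% fell. The gene that fell, OS08G0466200, similar to a KUP-related potassium transporter, had −3.41 (SE 0.73; DESeq2 adjusted p = 0.0307) in the authors' deposited table. In the efficient genotypes 0 of 26 proton pump genes and 0 of 37 potassium transport genes tested were called, where 0.28% of all genes were. Of all 26062 genes tested, 272 had an unadjusted p under 0.05 (DESeq2), and none of these transport genes did. There, 5 and 3 of them rose and 0 and 0 fell by the test of no change, where 4.89% of all genes rose and 2.97% fell.

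**Figure D3:**
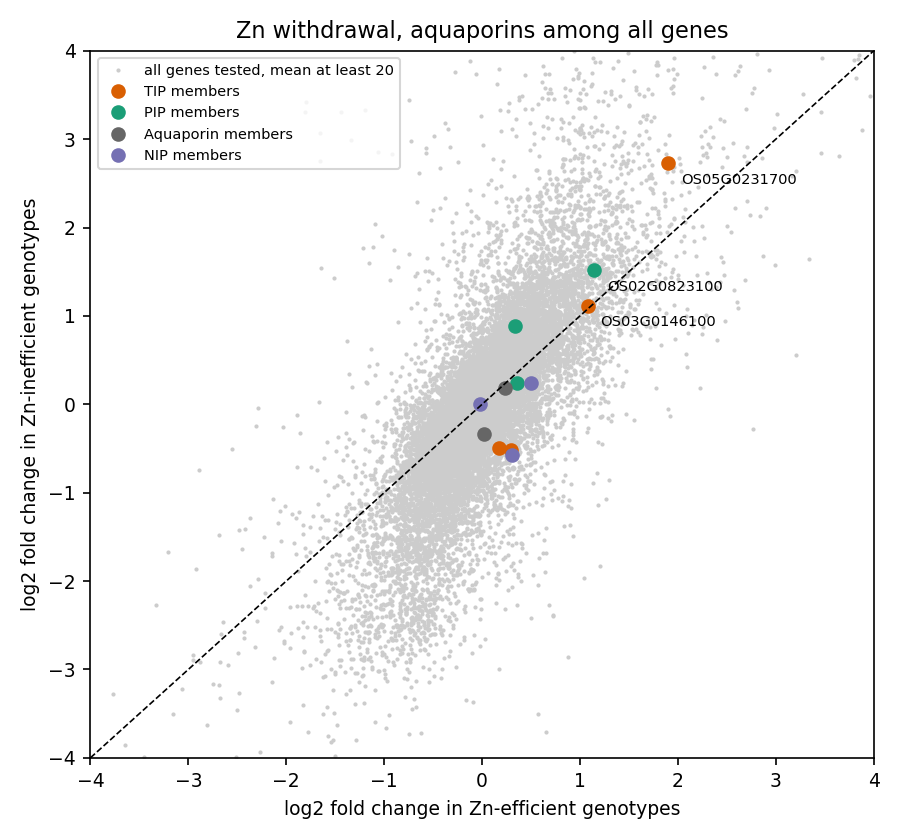
Log2 fold change for Zn withdrawal in efficient (x axis) against inefficient genotypes (y axis), with the 12 members in colour over the 19882 genes tested in both with a mean of at least 20, of which 201 lie outside the axes at −4 and 4. OS05G0231700 stands apart from the other members at 1.90 and 2.73, and the next highest in inefficient genotypes is OS02G0823100 at 1.51; the dashed line marks equal responses.

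The Zn response was then compared between the classes. None of the 14 members tested differed in response by the adjusted test, where 2.36% of all genes were called (1.58% higher and 0.783% lower). An unadjusted two-sided normal p under 0.05 was reached by 3 of the 14 members, and by 2802 of all 24127 genes tested. OS05G0231700 had a response higher by 0.82 (SE 0.40; unadjusted p = 0.0377, adjusted p = 0.372) in inefficient genotypes, from values in the authors' deposited table. OS04G0559700 had one higher by 0.56 (SE 0.26; adjusted p = 0.354) and OS06G0336200 one that was −0.66 (SE 0.31; adjusted p = 0.347) relative to efficient genotypes, from values in the authors' deposited table. The silicon influx gene OS02G0745100 had a difference of −0.88 (SE 0.47; unadjusted p = 0.0590, adjusted p = 0.466), with a 95% interval from −1.80 to 0.03, from values in the authors' deposited table. Its silicon efflux counterpart OS03G0107300 had −0.91 (SE 0.77; adjusted p = 0.826), from values in the authors' deposited table. That OS05G0231700 passed the 2-fold test in the inefficient class alone is therefore not shown to be a difference between the classes.

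Between the classes themselves no aquaporin gene passed the deposited test. With Zn, 0 of 20 members were called, where 0.00923% of all genes were (all of them lower). An unadjusted p under 0.05 (DESeq2) was reached by 0 members there, and by 67 of 32514 genes. Without Zn, 0 of 20 were called, where 0.298% of all genes were (0.274% higher and 0.0246% lower). There 1 member had an unadjusted p under 0.05 (DESeq2), as did 425 of 32514 genes. Over both supplies 0 of 20 were called, against 0.0524% of all genes (0.0339% higher and 0.0185% lower). Here too 1 member had an unadjusted p under 0.05 (DESeq2), as did 188 of 32461 genes. That member was OS02G0658100 in both comparisons. Of the 12 members with a mean of at least 20, 10 lay below 0 with Zn, at a median of −0.24, and 10 without Zn, at a median of −0.33. The median over all genes tested with such a mean was −0.00699 with Zn and 0.00731 without it. The same 6 genotypes make up the comparisons at both supplies, so the counts at the 2 supplies are not independent of each other, and nor are the members.

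**Figure D4:**
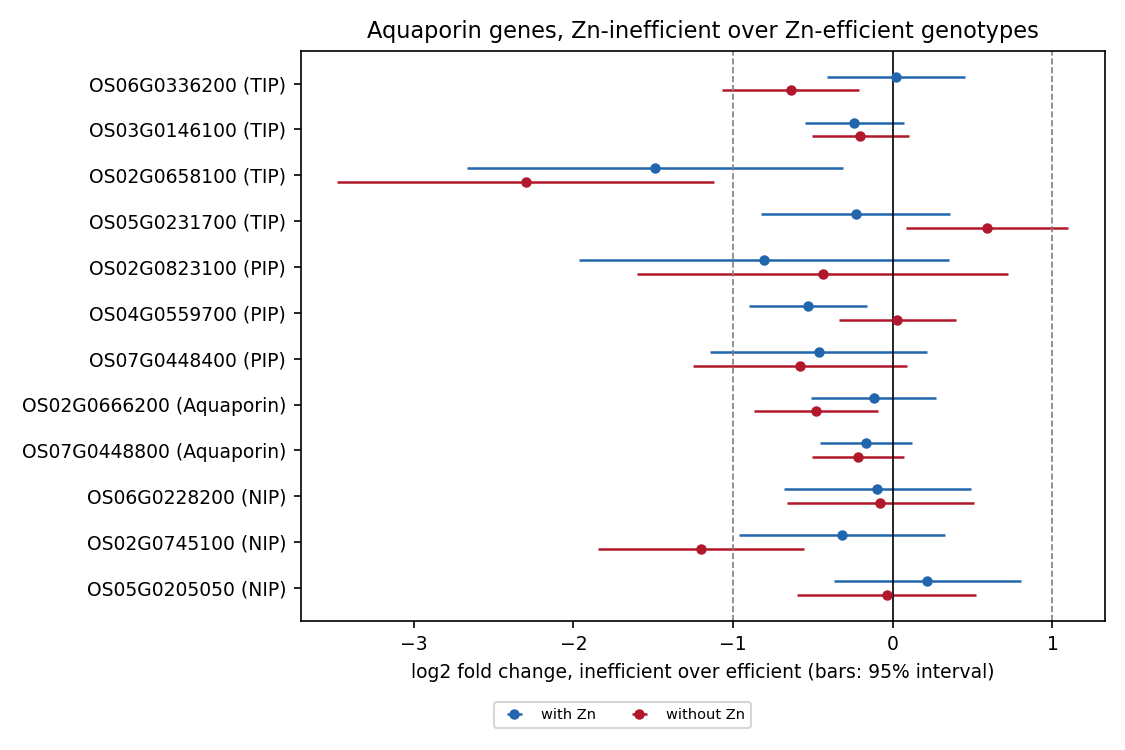
Log2 fold change of each member with a mean of at least 20, inefficient over efficient genotypes, with Zn and without, with 95% intervals from the deposited SE and dashed lines at a 2-fold difference. OS02G0658100 lies lowest, at −1.49 with Zn and −2.30 without, followed without Zn by OS02G0745100 at −1.20.

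The TIP gene OS02G0658100 had the largest difference between the classes among these 12 members, at both supplies. Its log2 difference, inefficient over efficient, was −1.49 (SE 0.60) with Zn and −2.30 (SE 0.60) without Zn in the authors' deposited table. By the test of no change it was lower in inefficient genotypes without Zn (adjusted p = 0.00703) and over both supplies (−1.89, SE 0.43; adjusted p = 0.00387), and did not pass with Zn (adjusted p = 1), all from values in the authors' deposited table. The silicon influx gene OS02G0745100 was lower without Zn by that test too, at −1.20 (SE 0.33; adjusted p = 0.0121), against −0.32 (SE 0.33; adjusted p = 1) with Zn, from values in the authors' deposited table. These were the 2 of 20 members called without Zn by the test of no change, where 4.04% of all genes were (2.44% higher and 1.6% lower), and 0 members were higher. Over both supplies 1 of 20 was lower, against 0.804% of all genes (0.333% higher and 0.471% lower), and with Zn 0 of 20 were called, against 0.0677% (0.0185% higher and 0.0492% lower).

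The silicon efflux gene OS03G0107300 stood at −1.69 (SE 0.54; adjusted p for no change 0.0478) without Zn and at −0.78 (SE 0.54) with Zn in the authors' deposited table. The root marker OS02G0662000, an RCc3 gene, stood at −1.47 (SE 0.44; adjusted p for no change 0.0274) without Zn and at −0.02 (SE 0.44) with Zn in the authors' deposited table. The root-specific gene OS10G0551800 stood at −1.71 (SE 0.32; adjusted p for no change 2.18e-05) without Zn and at −0.52 (SE 0.31) with Zn in the authors' deposited table. Of the 7 root markers, 2 were lower and 0 higher without Zn by the test of no change, and 0 of 7 were called by the deposited test there. Among them 1 had an unadjusted p under 0.05 (DESeq2), as did 425 of 32514 genes. The 6 root markers with a mean of at least 20 include the DNA repair helicase. Without Zn, 4 of the 6 lay below 0 and 2 above 0, from −1.71 to 1.195, per the authors' deposited table. The highest was the RCc3 gene OS04G0554600 (SE 1.52), whose derived group means without Zn were only 2.63 in efficient and 6.02 in inefficient genotypes. The other marker above 0 was the helicase, at 556 and 641 in that order. Apart from these 2, the root markers with such a mean lay below 0, and their part in the result was not tested. In such bulk tissue, fewer cells of a type and less RNA per cell cannot be told apart.

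Among the other members, the PIP gene OS02G0823100 stood at −0.81 (SE 0.59) with Zn and at −0.44 (SE 0.59) without Zn, and passed neither test, per the authors' deposited table. OS03G0861300, with a mean of 4.65 normalized counts, stood at −1.49 (SE 1.11) with Zn and at −2.89 (SE 1.29) without Zn, and passed neither test, per the authors' deposited table. The PIP gene OS04G0559700 stood at −0.53 (SE 0.19) with Zn and at 0.03 (SE 0.19) without Zn in the authors' deposited table, and passed neither test. The TIP gene OS06G0336200 stood at 0.02 (SE 0.22) with Zn and at −0.64 (SE 0.22; adjusted p for no change 0.0715) without Zn in the authors' deposited table. OS05G0231700, the gene that rose without Zn, stood at −0.23 (SE 0.30) with Zn and at 0.59 (SE 0.26; adjusted p for no change 0.228) without Zn in the authors' deposited table. For OS06G0228200, OS07G0448800, OS03G0146100 and OS02G0666200 the 95% intervals at both supplies ended short of a 2-fold difference in either direction.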

How the data were processed

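Per the submitters' processing notes, DESeq2 1.12.3, HISAT2 2.0.4, Trimmomatic 0.36, FastQC 0.11.5 and featureCounts (Subread 1.5.0-p3) were used with genome build IRGSP-1.0. Which annotation release was counted is not stated there. Each table deposited by the authors holds a mean signal (the mean over libraries of counts divided by size factors, identical in all 6 tables), a log2 fold change with its SE, a score, and p-values with adjusted p-values. From the deposited values, the score equals the size of the log2 fold change beyond 1, divided by its SE, so the authors' test asks for a change beyond 2-fold. An adjusted p that the table leaves empty was kept so, and such a gene counts as not tested.

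Computed here were the test of no change (log2 fold change over SE, two-sided normal p, Benjamini-Hochberg over the genes tested in that table), the difference of Zn responses (SEs combined as the root of their sum of squares, adjusted over 24127 genes), 95% intervals, and group means, solved from each gene's overall mean and the 4 contrasts between groups, weighting the groups alike. These means were used for genes whose contrasts closed to within 0.01. The scripts were tested on simulated data. No values per library were analysed here, so depth, leave-one-out fits and a genotype term were not. Members named in full are those called in any test, the 3 per subfamily with the highest mean, and the silicon influx genes; the others are listed with their means. The members and lists were chosen with earlier results of these data known. Each group has 1 library per genotype, so p-values rest on a spread in which genotype, plant and library differences cannot be separated. Whether the authors' fits held a term for genotype is unknown here. Scripts ran in Python 3.11.15 with scipy 1.17.1, numpy 2.4.6, pandas 2.3.3 and, for plots, matplotlib 3.10.9.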

Additional observations from a re-analysis of the deposited data

How the results depend on the processing

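No paired analysis was possible because the tables hold no values per library, and for the same reason no library could be left out. The counts of called members were recomputed under the alternatives fixed for each comparison. By the test of no change they became 2 in efficient, 4 in inefficient and 4 over all genotypes for Zn, and 2 without Zn and 1 over both supplies for the classes, while the count with Zn was 0 in both tests. This test asks for any change, so its construction allows more calls. With SEs widened by the robust spread across genes (2.24 in inefficient and 2.34 over all genotypes) the counts for Zn became 0 and 0, and the cause was not tested. The efficient Zn comparison, widened by 1.29, had 0 as before, a count that wider SEs could not raise. In the 3 class comparisons the spread was under 1, so no SE was widened. An adjusted p under 0.01, and adjustment over genes with a mean of at least 20 alone, gave the main count in all 6 deposited comparisons. Where the main count was 0, the stricter adjusted p could give no other count. The response difference had 0 called members under its 4 alternatives. An adjusted p under 0.01 and a null of a 2-fold difference are stricter, so they could add no call. The difference taken between the class comparisons is the same difference for these members, so it is no separate check. Only adjustment over genes with a mean of at least 20 could have changed the count. Over the alternatives, the adjusted p of OS05G0231700 ranged from 6.89e-20 to 1 in inefficient and from 2.96e-09 to 1 in efficient genotypes.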

Other observations

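A further 15 genes of the major intrinsic protein family are described in words that the rule does not hold, and they were listed after the data had been seen. In the authors' deposited table for inefficient genotypes 0 of 13 tested were called for Zn and 2 had an unadjusted p under 0.05 (DESeq2), while 3 rose and 4 fell by the test of no change. In the same comparison, 3.5% of all genes were called by the deposited test, and 17% rose and 15.2% fell by the test of no change. An unadjusted p under 0.05 (DESeq2) was reached there by 1849 of 24127 genes. The genes below were chosen after their values were seen. OS01G0232100, similar to the maize tonoplast protein ZmTIP4-3, had derived group means of 258 normalized counts with Zn and 131 without Zn in efficient genotypes, and of 250.0 and 52.4 in inefficient genotypes. Its log2 fold change in inefficient genotypes was −2.25 (SE 0.45; adjusted p = 0.112 beyond 2-fold and 5.73e-06 for no change) in the authors' deposited table. OS01G0232000, a major intrinsic protein family gene, had derived group means of 312 and 119 in efficient and of 436 and 72.6 in inefficient genotypes, with and without Zn in that order. Its log2 fold change in inefficient genotypes was −2.59 (SE 0.52; adjusted p = 0.0658 beyond 2-fold and 9.94e-06 for no change) in the authors' deposited table. Those that rose by the test of no change were OS02G0629200, similar to the barley protein HvPIP2;1, at 1.44 (SE 0.35), OS04G0521100 at 1.57 (SE 0.62) and the NOD26-like gene OS01G0202800 at 1.67 (SE 0.59), in the authors' deposited table. OS10G0513200, a boric acid channel by its description, fell by 1.16 (SE 0.37; adjusted p for no change 0.00795) in the authors' deposited table. OS07G0448100, similar to the maize protein ZmPIP2-6, had a mean of 237 normalized counts and SEs up to 2.50, and the authors' deposited tables give no p-value for it.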
